A study of Mus musculus with 2 samples.

Results

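CT26 tumour cells were picked by a rule on marker genes from among the immune and stromal cells in 2 droplet-based single-cell RNA sequencing libraries. Their cycling, hypoxic and interferon states were described in each library. CT26 is a mouse colon carcinoma line that is transplanted into BALB/c mice, the inbred strain it came from. The series holds cells from CT26 tumours that expressed PTIR1 (1 library) and from mock CT26 tumours (1 library), both in BALB/c, and the labels name the source of both as infiltrating lymphocytes. The number of animals behind each library is not given in the sources used here. PTIR1 is described in the series title as a suppressor of the immunoproteasome, and its own RNA was not analysed here, so it gave no check of the labels. With 1 library in each group there is no replicate: intervals are at 95% and hold counting error alone, no significance test was made, and a difference between the libraries cannot be told apart from a difference between 2 tumours or 2 preparations. Counts are of unique molecular identifiers (UMIs), the tags by which copies of 1 molecule are counted once.

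A cell was counted as a tumour cell when its barcode held at least 200 genes, at most 10% mitochondrial UMIs and at least 10000 UMIs, when Hmga2, Esm1, Prkg2, Lgals7 and Tnfrsf12a together made up at least 0.1% of its UMIs, when it had at most 1 UMI of the leukocyte gene Ptprc, and when Dcn, Lum, Pdgfra and Dpt together stayed under 0.1%. The cells were therefore selected on their own expression, and those genes describe them but are no result. The rule found 169 tumour cells among 9006 PTIR1 barcodes and 184 among 10833 mock barcodes, 353 of 19839 in all. They made up 2.23% (exact binomial interval 1.91 to 2.59%) of the 7567 PTIR1 barcodes that passed the gene and mitochondrial limits and 1.97% (1.70 to 2.28%) of the 9328 mock barcodes. The ratio of the shares was 1.13 (0.921 to 1.39), and of barcodes with at least 10000 UMIs it was 0.858. These shares depend on the UMI limit, which left out 337 PTIR1 and 1266 mock barcodes that met every other condition. In such shallow barcodes few UMIs suffice to reach 0.1%, and a lower limit was not tried. PTIR1 tumour cells were shallower, with a median of 48128 UMIs (10311 to 552732) and 6000 genes, against 71622 UMIs (10015 to 491414) and 6778 genes in mock tumour cells. Median mitochondrial shares were 4.88% and 4.74%. The libraries shared 30 barcodes, and 0 of these were tumour cells in both. Because deep cells would otherwise dominate, each tumour cell was thinned at random to 10000 UMIs, and levels are UMIs per 1000000 UMIs (CPM) at that equal depth. Where tumour cells are set beside other barcodes, levels are means of each barcode's CPM over all its UMIs.

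The cells just inside and just outside the limits were close together. The lowest tumour gene share inside was 0.1005% in PTIR1 cells and 0.103% in mock cells, and the nearest barcodes outside had 0.0984% and 0.0975%. Of the cells inside, 28 PTIR1 and 33 mock cells had 1 Ptprc UMI. On the Dcn side the highest share inside was 0.0996% in PTIR1 cells and 0.0858% in mock cells, and the nearest outside had 0.101% and 0.105%. That limit removed 62 PTIR1 barcodes but 7 mock barcodes that met every other condition. Other limits were uneven as well. The tumour gene limit removed 410 PTIR1 and 163 mock barcodes that met every other condition, and the UMI limit 337 and 1266. The mitochondrial limit removed 29 and 28.

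The label was checked on genes the rule did not use. Cdkn2a, the cell cycle inhibitor gene that CT26 is known to have lost, and its neighbour Cdkn2b had 0 UMIs in the PTIR1 tumour cells (10351421 UMIs) and 0 in the mock tumour cells (15820351 UMIs). In barcodes with at least 10000 UMIs and 2 or more Ptprc UMIs, called Ptprc-positive here, Cdkn2a had 71 UMIs in 51 of 2282 PTIR1 barcodes and 127 UMIs in 80 of 2690 mock barcodes. RNA of 4 Y-linked genes (Ddx3y, Eif2s3y, Uty and Kdm5d) was found in 7.10% of PTIR1 tumour cells and 5.98% of mock tumour cells, at 1.26 and 0.822 CPM of all their UMIs. The Ptprc-positive barcodes had it in 85.2% and 82.6%, at 124 and 112 CPM, in the PTIR1 and mock libraries. As a set, the tumour cells therefore stood apart from the leukocytes by RNA that was not in the rule, mainly the Y-linked RNA. Most Ptprc-positive barcodes also held no Cdkn2a UMI, and the barcodes past the Dcn limit described below had 0. Absence of Cdkn2a therefore cannot mark a single cell as CT26. Krt18, a keratin of simple epithelia that was also given as a marker, was low: 28.99 CPM in 16.0% of PTIR1 cells and 17.4 CPM in 10.9% of mock cells. Of the 18 simple epithelial genes examined, 3 had at least 50 UMIs. Marker RNA of most other cell types was sparse at equal depth, with macrophage and fibroblast markers, given below, found in most cells. In PTIR1 and mock tumour cells, at least 1 UMI was found for 4 and 5 of 8 T cell markers (in 4.14% and 4.89% of cells), 5 and 3 of 7 B cell markers (5.33% and 4.89%), 3 and 1 of 7 dendritic cell markers (4.73% and 1.63%), 3 and 1 of 8 endothelial markers (1.78% and 1.09%) and 2 and 1 of 7 pericyte or muscle markers (3.55% and 1.09%). Mast cell or basophil markers (3 and 4 of 6) were in 4.73% and 7.61%, and erythroid markers (3 and 2 of 5) in 2.37% and 1.09%. Found more often were NK cell markers, 6 of 7 in each library, in 25.4% of PTIR1 and 15.2% of mock tumour cells. Neutrophil markers (4 and 3 of 8) were in 13.0% of PTIR1 and 7.07% of mock cells. Of 7 adipocyte or skin keratinocyte markers, 1 was found, Krt10, in 14.2% of PTIR1 and 19.6% of mock cells. Trac, Cd8b1, Klrb1c, Ms4a1, Flt3, Kdr and Rgs5 were at 0 in both. Macrophage markers (11 and 12 of 12) were in 79.9% of PTIR1 and 71.2% of mock cells. The 12 macrophage markers summed to a median of 1 UMI per 10000 in both libraries, with a highest cell of 25 in PTIR1 and 123 in mock cells. Lyz2, a lysozyme gene of myeloid cells, averaged 102 CPM in PTIR1 and 144 CPM in mock tumour cells, against 10668 and 14592 CPM in the Ptprc-positive barcodes. At equal depth 1 mock cell held 88 of 276 mock Lyz2 UMIs, and without the highest cell 181 were left in PTIR1 and 188 in mock cells.

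Fibroblast genes need a separate account, because they moved with the library. The 12 fibroblast markers summed to a median of 8 UMIs per 10000 in PTIR1 tumour cells (highest 127) and 5 in mock tumour cells (highest 166). At least 1 such UMI was in 99.4% of PTIR1 and 95.1% of mock tumour cells. Dcn, a matrix proteoglycan used in the rule, averaged 173 CPM in PTIR1 and 85.8 CPM in mock tumour cells, and in Ptprc-positive barcodes, which should lack it, 93.2 and 5.88 CPM. Barcodes past the Dcn limit with at most 1 Ptprc UMI numbered 413 in the PTIR1 library and 20 in the mock library, whatever their tumour gene share. Like the tumour cells, they held little Y-linked RNA (5.57% of PTIR1 and 10.0% of mock barcodes), had 0 Cdkn2a UMIs, and carried Tm4sf1, a membrane protein abundant in the tumour cells, at 787 and 769 CPM, against 808 and 937 CPM in the PTIR1 and mock tumour cells and 37.6 and 16.2 CPM in Ptprc-positive barcodes. Their Mki67 was 4.99 CPM in the PTIR1 and 8.99 CPM in the mock library. The rule places these barcodes outside by its own genes. Y-linked RNA, Cdkn2a and Tm4sf1 set the tumour cells apart from the leukocytes but not from these barcodes. The part of these barcodes in the differences below was not tested. Values with the Dcn limit lifted are given where they change.

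**Figure D1:**
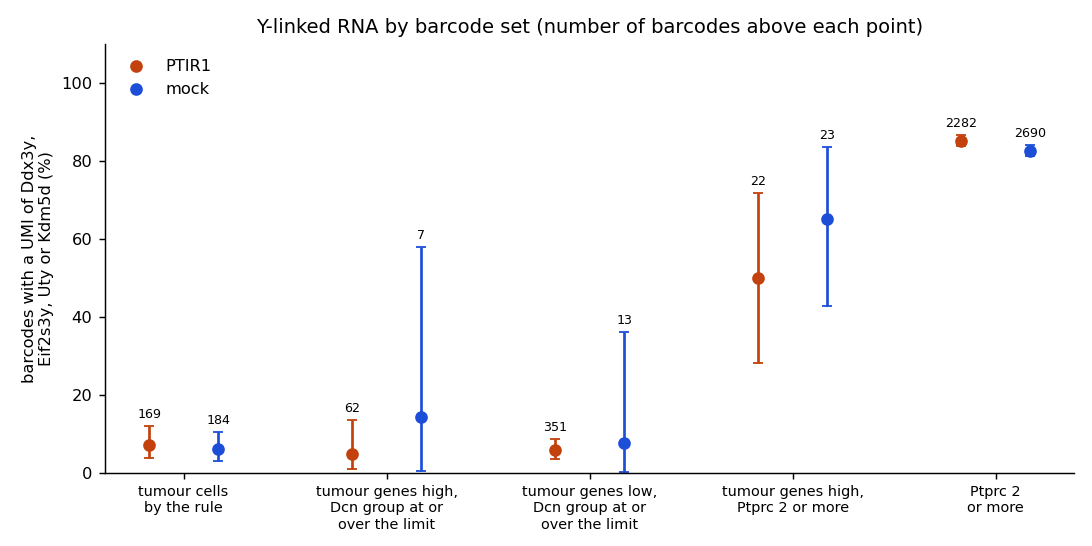
Share of barcodes (vertical axis, %) with at least 1 UMI of 4 Y-linked genes, in sets of barcodes along the horizontal axis, PTIR1 left of mock; bars are exact 95% binomial intervals and the number above each point is the number of barcodes. Tumour cells (7.10% PTIR1, 5.98% mock) and PTIR1 barcodes past the Dcn limit lie far below Ptprc-positive barcodes (85.2% and 82.6%), while the 7 and 13 mock barcodes past that limit have wide intervals.

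Cycling, hypoxia and the interferon response were followed, programmes that vary between the cells of a tumour. Dividing cells switch on replication genes in S phase through E2F factors, and genes of mitosis in G2 through complexes that bind CCAAT boxes and cell cycle homology regions. Cells short of oxygen stabilise HIF factors, which bind hypoxia response elements and raise glucose transport, glycolysis and carbonic anhydrases. Interferon gamma, made by T and NK cells, acts through JAK kinases on genes with gamma activated sites or interferon stimulated response elements, among them guanylate-binding proteins, the immunoproteasome and the machinery that loads peptides on MHC class I.

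The letters of these elements are shown in the promoters of 5 genes on which the state results turn: Car9 and Pgk1 for hypoxia, Mki67 and Top2a for mitosis, and Gbp3 for interferon. They run from 250 bases before to 50 bases after the start, on the gene's strand (RefSeq, build GRCm38.p6), with capitals marking the letters searched on either strand: ACGTG and GCGTG for Car9 and Pgk1, CCAAT and TTTGAA for Mki67 and Top2a, and for Gbp3 GAAA repeated after any 2 bases (the core of an interferon stimulated response element) and TTCNNNGAA (that of a gamma activated site).
Car9, chr4:43506776-43507075, plus strand: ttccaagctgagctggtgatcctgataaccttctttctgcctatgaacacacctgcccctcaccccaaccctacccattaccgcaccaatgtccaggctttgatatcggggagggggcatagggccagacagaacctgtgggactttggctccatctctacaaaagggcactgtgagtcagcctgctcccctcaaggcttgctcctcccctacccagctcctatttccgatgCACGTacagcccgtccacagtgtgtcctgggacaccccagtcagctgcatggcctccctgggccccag
Pgk1, chrX:106186850-106187149, plus strand: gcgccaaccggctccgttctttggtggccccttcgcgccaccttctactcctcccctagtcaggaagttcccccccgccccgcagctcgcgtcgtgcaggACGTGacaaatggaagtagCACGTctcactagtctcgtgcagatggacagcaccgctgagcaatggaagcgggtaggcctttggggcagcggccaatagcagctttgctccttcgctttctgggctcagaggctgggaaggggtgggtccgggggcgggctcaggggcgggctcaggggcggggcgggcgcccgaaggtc
Mki67, chr7:135716330-135716629, minus strand: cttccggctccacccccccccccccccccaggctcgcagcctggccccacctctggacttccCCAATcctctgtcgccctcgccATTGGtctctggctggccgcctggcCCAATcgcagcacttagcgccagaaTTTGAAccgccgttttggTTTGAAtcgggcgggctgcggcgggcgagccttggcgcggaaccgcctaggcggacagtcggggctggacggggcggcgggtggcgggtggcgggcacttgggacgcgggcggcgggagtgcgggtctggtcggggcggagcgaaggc
Top2a, chr11:99024140-99024439, minus strand: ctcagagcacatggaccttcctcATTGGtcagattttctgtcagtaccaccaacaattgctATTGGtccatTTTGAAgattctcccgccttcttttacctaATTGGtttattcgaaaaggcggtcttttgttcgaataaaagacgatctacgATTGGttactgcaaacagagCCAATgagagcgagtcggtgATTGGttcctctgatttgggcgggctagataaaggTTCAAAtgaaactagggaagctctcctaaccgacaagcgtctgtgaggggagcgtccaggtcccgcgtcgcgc
Gbp3, chr3:142559794-142560093, plus strand: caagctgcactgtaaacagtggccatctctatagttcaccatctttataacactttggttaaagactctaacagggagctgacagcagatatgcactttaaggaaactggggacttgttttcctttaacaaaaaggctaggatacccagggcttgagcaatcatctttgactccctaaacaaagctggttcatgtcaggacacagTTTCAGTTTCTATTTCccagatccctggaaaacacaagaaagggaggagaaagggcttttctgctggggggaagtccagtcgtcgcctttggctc

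Car9 held 1 match, Pgk1 held 2, Mki67 held 5 and Top2a held 8, and Gbp3 held 2 that overlap each other. ACGTG or GCGTG stood in 84.8% of 33 promoters of the hypoxia list and in 43.8% of all 32851 promoters of the same length. CCAAT and TTTGAA stood together in 57.8% of 45 promoters of the G2 and mitosis list and in 6.95% of all. An E2F form (TTTGGCGC, TTTCGCGC or TTTCCCGC) stood in 36.4% of 33 S phase promoters and in 1.84% of all. The repeated GAAA or TTCNNNGAA stood in 14 of 20 interferon gamma promoters and in 11.3% of all, and in 2 of 6 immunoproteasome promoters. Promoters were found for 23 of 30 hypoxia genes, 41 of 48 genes of G2 and mitosis, 29 of 41 S phase genes and 18 of 27 interferon gamma genes. A match describes letters and not a site in use.

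Across genes, 6324 had at least 50 UMIs over both libraries at equal depth. Of these, 157 were at least 2-fold higher in PTIR1 tumour cells (2.48%) and 173 were at least 2-fold lower (2.74%), and the median log2 ratio of all was -0.03. In all, 2938 genes were higher and 3386 lower by any amount. These counts and shares are the background for the list genes past 2-fold that follow. For the main lists the number of genes whose interval excluded 1 is given as well. The share of all 6324 genes with such an interval is not given here, so those numbers have no background beside them. Such intervals are narrower for abundant genes. The genes that lead the higher side by the end of their interval nearest to 1 include matrix genes and early response genes, and those that lead the lower side include hypoxia, cell division and cornified envelope genes. For 41.4% of the 157 higher genes, the level in the PTIR1 barcodes past the Dcn limit was more than 2-fold that of the PTIR1 tumour cells, against 4.24% of all genes measured.

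Among the higher genes, Aspn, which encodes the small matrix proteoglycan asporin, had 70 UMIs in 19 PTIR1 cells and 0 UMIs in mock cells at equal depth. With all UMIs summed it had 190 in PTIR1 and 39 in mock cells, a ratio of 7.45 (5.25 to 10.8). Mmp3, the matrix metalloproteinase stromelysin, had 71 UMIs in 10 PTIR1 cells and 2 UMIs in 1 mock cell, a ratio of 38.7 (10.3 to 325), or 4.14 with all UMIs. Both were read in few tumour cells, and both were far higher in the PTIR1 barcodes past the Dcn limit, at 615 and 489 CPM. Col6a1, a chain of microfibrillar collagen, was at 66.3 CPM in PTIR1 and 7.07 CPM in mock cells, a ratio of 9.38 (5.27 to 18.2), or 3.76 with all UMIs. Col3a1, fibrillar collagen, was at 72.2 and 10.3 CPM in PTIR1 and mock cells, a ratio of 6.99 (4.29 to 12). Cp, ceruloplasmin, was at 171 and 20.7 CPM, 8.28-fold higher (5.89 to 11.9), or 4.77 with all UMIs. Pdgfrb, a growth factor receptor of mesenchymal cells, and Ogn, another matrix proteoglycan, had ratios of 7.78 (3.51 to 20.3) and 5.24 (3.44 to 8.26), or 2.66 and 3.37 with all UMIs. Those 5 genes reached 169, 422, 637, 96.3 and 646 CPM in the PTIR1 barcodes past the Dcn limit. Napsa, an aspartic protease, was at 32.5 CPM in PTIR1 cells and 1.63 CPM in mock cells, a ratio of 19.96 (6.48 to 99.8), or 5.17 with all UMIs. Ptprc-positive barcodes held Napsa at 173 and 164 CPM in the PTIR1 and mock libraries.

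On the lower side, Slurp1, a secreted Ly6-family protein of cornified epithelia, was at 14.2 CPM in 10.7% of PTIR1 cells and 179 CPM in 50.5% of mock cells, a ratio of 0.0792 (0.05 to 0.120), or 0.135 with all UMIs. It was read in 18 PTIR1 and 93 mock cells, and the top 10% of mock cells held 48.5% of its mock UMIs. Cnfn, cornifelin of the cornified envelope, had 1 UMI in 1 PTIR1 cell and 68 UMIs in 16 mock cells, a ratio of 0.0160 (0.000400 to 0.0923), or 0.0512 with all UMIs. H2-Aa and Cd74, which belong to MHC class II presentation, had ratios of 0.198 (0.0974 to 0.369) and 0.268 (0.189 to 0.373, or 0.155 with all UMIs). Their levels in tumour cells, 7.10 and 35.9 CPM for H2-Aa and 26.6 and 99.5 CPM for Cd74 in PTIR1 and mock cells, were far under those in Ptprc-positive barcodes (1067 and 1414 CPM for H2-Aa, 2438 and 3478 CPM for Cd74), and the part of free RNA was not tested. The other genes on this side are given with the states below.

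**Figure D2:**
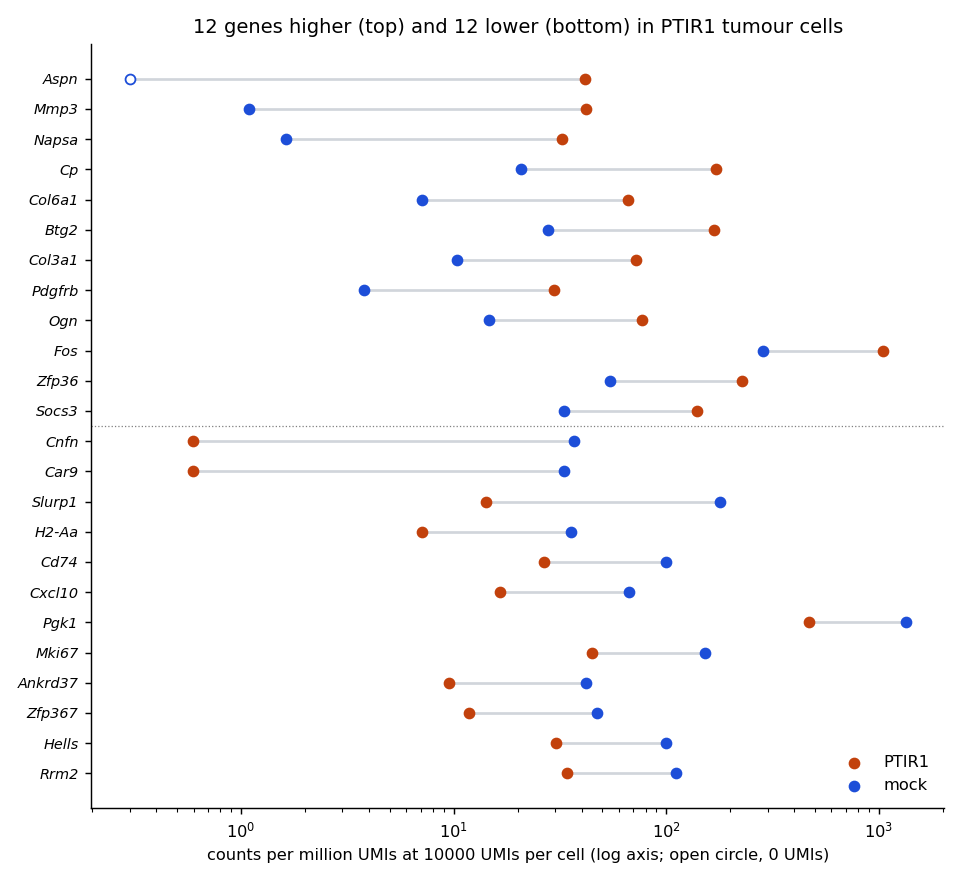
Level of the 12 genes furthest in each direction (rows) in CPM at 10000 UMIs per cell on a log axis, PTIR1 in orange and mock in blue, with an open circle for 0 UMIs drawn at the left edge. The widest gaps are Aspn and Mmp3 among the higher genes and Cnfn, Car9 and Slurp1 among the lower ones.

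Cycling was less frequent among PTIR1 tumour cells. The 41 S phase genes summed to a median of 9 UMIs per 10000 in PTIR1 cells (1 to 64) and 24 in mock cells (0 to 86). The 48 genes of G2 and mitosis summed to a median of 9 in PTIR1 cells (1 to 264) and 32 in mock cells (2 to 190). The ranges overlapped almost fully, but the middle of the PTIR1 cells lay at or near the lower quartile of the mock cells (10 for S phase, 9 for G2 and mitosis). Of the measured S phase genes, 35 of 35 were lower, 30 of them with an interval below 1 and 19 at least 2-fold, with a median log2 ratio of -1.003. Of the measured G2 and mitosis genes, 41 of 42 were lower, 37 of them with an interval below 1 and 17 at least 2-fold, with a median of -0.85.

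Mki67, the proliferation antigen that coats mitotic chromosomes, had 76 UMIs in 37 PTIR1 cells and 280 UMIs in 90 mock cells, a ratio of 0.295 (0.226 to 0.382). Top2a, which untangles replicated DNA, was at 82.2 CPM in PTIR1 and 229 CPM in mock cells, a ratio of 0.359 (0.294 to 0.435). Birc5, survivin of the chromosomal passenger complex, had a ratio of 0.353 (0.278 to 0.445), and Kif11, the spindle motor, 0.301 (0.176 to 0.493). With all UMIs summed, Birc5 stood at 0.625 and Kif11 at 0.499. In both libraries these genes came from a subset: the top 10% of cells held 72.4% of the Mki67 UMIs in PTIR1 cells and 50.7% in mock cells. For S phase, Hells, a chromatin remodeller of replication, had a ratio of 0.302 (0.217 to 0.414), and Rrm2, the ribonucleotide reductase subunit made in S phase, 0.308 (0.226 to 0.414). With all UMIs summed these were 0.552 and 0.529. Zfp367, a zinc finger factor outside the list, stood at 11.8 CPM in PTIR1 and 47.3 CPM in mock cells, a ratio of 0.250 (0.146 to 0.411), or 0.440 with all UMIs. Tyms, which makes thymidylate, and the chromatin factor Atad2 had ratios of 0.335 and 0.383, or 0.578 and 0.457 with all UMIs.

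Genes that govern cell cycle entry differed less than the genes of division. Of 12 measured, 0 passed 2-fold in either direction, and the median log2 ratio was -0.18. Ccnd1, cyclin D1, was at 730 CPM in PTIR1 and 1039 CPM in mock cells, a ratio of 0.703 (0.654 to 0.756). E2f1 had a ratio of 0.653 (0.435 to 0.971), and Rbl1, a pocket protein, 0.534 (0.321 to 0.869). Cdkn1a, the p21 inhibitor, was nearly level at 141 and 145 CPM in PTIR1 and mock cells, a ratio of 0.975 (0.815 to 1.17), and for Myc the ratio was 0.828 (0.598 to 1.14), or 1.13 with all UMIs.

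A common line was drawn at the upper quartile of mock cells to count cells in a high state. It is a line through a range of a score and not a boundary between cell types. The mock share at or above it is set by the line, at 25% or more where cells tie, and is no result. Intervals of the ratios of shares treat that mock share as sampled. For S phase (35.25 UMIs per 10000) 16 of 169 PTIR1 cells lay at or above the line (9.47%, exact interval 5.51 to 14.9%), against 46 of 184 mock cells (25%). For G2 and mitosis (74.25 UMIs) it was 23 PTIR1 cells (13.6%, 8.83 to 19.7%) against 46 mock cells (25%). Within 20% of those lines lay 10 PTIR1 and 40 mock cells for S phase, and 10 PTIR1 and 24 mock cells for G2 and mitosis. With the line at the mock 90th percentile, the ratio of the shares was 0.115 for S phase, against 0.379 at the upper quartile, and 0.344 for G2 and mitosis, against 0.544. Over 15 alternative settings the S phase ratio ran from 0.115 to 0.346, so every one lay below 0.379. Depth moved with the state: across cells, the G2 and mitosis sum at equal depth had a Spearman correlation with total UMIs of 0.46 in PTIR1 and 0.32 in mock cells. Among tumour cells under 100000 UMIs, the list medians were -0.98 for S phase and -0.66 for G2 and mitosis.

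**Figure D3:**
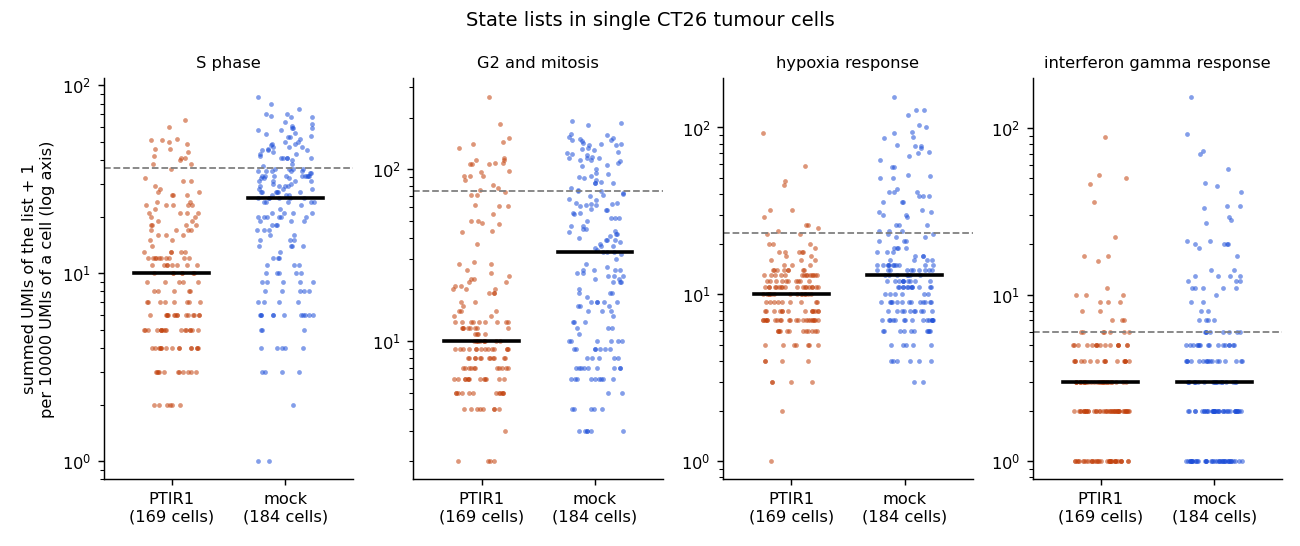
Summed UMIs of each state list plus 1 per 10000 UMIs of a cell (vertical log axis) for every tumour cell, PTIR1 left of mock in each panel; black bars are medians and the dashed line is the mock upper quartile. PTIR1 medians lie below mock medians for S phase (9 and 24), G2 and mitosis (9 and 32) and hypoxia (9 and 12), and both medians are 2 for interferon gamma.

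Hypoxia genes were lower in PTIR1 tumour cells, mostly in the high tail. The 30 genes summed to a median of 9 UMIs per 10000 in PTIR1 cells (0 to 92) and 12 in mock cells (2 to 152), and the upper quartile was 12 in PTIR1 and 22.25 in mock cells. The top 10% of cells held 29.5% of the list's UMIs in the PTIR1 library and 42.2% in the mock library. At or above the mock upper quartile lay 11 PTIR1 cells (6.51%, 3.29 to 11.3%), against 46 mock cells (25%), with 10 PTIR1 and 17 mock cells within 20% of that line. The ratio of the shares was 0.260 (0.140 to 0.486), and it was 0.596 with the line at the mock median and 0.109 at the mock 90th percentile. Of the 30, 21 were measured and all 21 were lower, 16 of them with an interval below 1 and 14 at least 2-fold. The median log2 ratio was -1.09.

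Car9, the surface carbonic anhydrase that buffers hypoxic cells, had 1 UMI in 1 PTIR1 cell and 61 UMIs in 22 mock cells, up to 11 in a cell. Its ratio was 0.0178 (0.000445 to 0.103), or 0.0493 with all UMIs. Ankrd37, another HIF target, had a ratio of 0.226 (0.123 to 0.391), and Slc16a3, the lactate exporter, 0.253 (0.140 to 0.434), or 0.423 with all UMIs. Ero1l, the oxidase of disulphide bond formation, was at 100.6 CPM in PTIR1 and 233 CPM in mock cells, a ratio of 0.433 (0.360 to 0.518). Bnip3, a mitophagy receptor, Slc2a1, the glucose importer, and P4ha1, a collagen prolyl hydroxylase, had ratios of 0.420, 0.405 and 0.463. Some members differed less. Vegfa, the vascular growth factor, was at 78.7 and 102 CPM, a ratio of 0.770 (0.612 to 0.967), and the glucose kinase Hk2 and the demethylase Kdm3a had ratios of 0.997 (0.676 to 1.47) and 0.959 (0.600 to 1.53). The regulators differed by less than counting error: Hif1a, the oxygen-sensitive subunit, had a ratio of 0.967 (0.716 to 1.3), its partner Arnt 1.13 (0.641 to 1.99), and the coactivators Crebbp and Ep300 had 1.15 and 1.04. The prolyl hydroxylase Egln1, itself a HIF target, had a ratio of 0.486 (0.388 to 0.607), while Egln2 had 0.966 (0.677 to 1.38).

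Glycolysis genes were lower in 11 of 11 measured, 10 of them with an interval below 1, and their median log2 ratio was -0.65. Pgk1, phosphoglycerate kinase, was at 472 CPM in PTIR1 and 1340 CPM in mock cells and was found in 96.4% and 98.4% of cells, a ratio of 0.352 (0.325 to 0.382). Pgk1 was thus in nearly every cell of both libraries and differed in amount per cell. Tpi1, Pgam1 and Ldha had ratios of 0.606, 0.626 and 0.638. Nuclear genes of oxidative phosphorylation were level, with 11 of 18 higher (3 with an interval above 1), 7 lower (3 below 1) and a median log2 ratio of 0.04.

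Interferon gamma response genes were lower in PTIR1 tumour cells, and the difference lay in a minority of cells. The 26 genes summed to a median of 2 UMIs per 10000 in both libraries, with an upper quartile of 4 in PTIR1 and 5 in mock cells, and highest values of 87 and 153. The top 10% of cells held 59.4% of the list's UMIs in PTIR1 and 62.6% in mock cells. At or above the mock upper quartile of 5 UMIs lay 28 PTIR1 cells (16.6%, 11.3 to 23%) and 53 mock cells (28.8%), a ratio of 0.575 (0.383 to 0.865). With the line at the mock median the ratio was 0.924. At such low sums 26 PTIR1 and 28 mock cells lay within 20% of the line. Of 14 measured genes 11 were lower (9 with an interval below 1, 5 at least 2-fold) and 3 higher (0 with an interval above 1), and the median log2 ratio was -0.73.

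Gbp3, a guanylate-binding protein, had a ratio of 0.358 (0.216 to 0.574), Gbp4 0.388 (0.224 to 0.647) and Irgm1, an immunity-related GTPase, 0.432 (0.254 to 0.711). The Gbp genes are a family of related genes, and how reads that fit several of them were counted is not given in the sources used here. Irf1, an early interferon response factor, was at 26 CPM in PTIR1 and 21.7 CPM in mock cells, a ratio of 1.20 (0.763 to 1.89), and Igtp and Ifi47, also immunity-related GTPases, had 1.03 and 0.919. With all UMIs summed these 3 stood at 0.827, 0.479 and 0.616, so the direction of Irf1 and Igtp turned. Cxcl10, a chemokine that draws T cells, had a ratio of 0.248 (0.158 to 0.376, or 0.404 with all UMIs), but 1 mock cell held 94 of its 123 mock UMIs. Without the highest cell of each library, 21 UMIs were left in PTIR1 and 29 in mock cells, and it was found in 17 PTIR1 and 18 mock cells. Of 18 measured type I interferon genes 14 were lower, 7 of them with an interval below 1, and 2 passed 2-fold, Ifit3 at 0.323 (0.172 to 0.572) and Herc6 at 0.402 (0.241 to 0.651), with a median log2 ratio of -0.47.

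Of 10 receptor and signalling genes measured, 3 had an interval above 1 (2 of them past 2-fold) and 0 an interval below 1, and the median log2 ratio was 0.19. Ifngr1 was at 38.5 CPM in PTIR1 and 34.8 CPM in mock cells, a ratio of 1.11 (0.771 to 1.59), Ifngr2 had 1.34 (0.899 to 2.02), Jak1 1.16 (0.843 to 1.59) and Jak2 1.05 (0.603 to 1.83, or 0.626 with all UMIs). Within this list Socs3, a feedback inhibitor induced by STAT3, stood highest at 140 CPM in PTIR1 and 33.2 CPM in mock cells, a ratio of 4.23 (3.18 to 5.70), or 2.80 with all UMIs. Stat3 itself had a ratio of 2.45 (1.59 to 3.84) and Irf3 1.77 (1.18 to 2.69), or 1.40 and 1.10 with all UMIs. Socs1, a feedback inhibitor counted in the interferon gamma list, had 1.31 (0.743 to 2.32), or 0.911 with all UMIs.

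The immunoproteasome, in which induced catalytic subunits replace the constitutive ones, is the subject of the series title. Of the 5 genes examined, 3 had an interval below 1 in PTIR1 tumour cells and 0 passed 2-fold, with a median log2 ratio of -0.33. Psmb8 had 204 UMIs in 53.8% of PTIR1 cells and 390 UMIs in 70.7% of mock cells, a ratio of 0.570 (0.478 to 0.676). Psmb9 had 135 UMIs in 45.6% and 256 UMIs in 59.8%, a ratio of 0.574 (0.463 to 0.710, or 0.366 with all UMIs), and Psmb10, the remaining catalytic subunit, 0.797 (0.655 to 0.968). The PA28 activator subunits Psme1 and Psme2 had ratios of 0.903 (0.784 to 1.04) and 0.895 (0.769 to 1.04), so their difference was within counting error. The constitutive proteasome was nearly level, with a median log2 ratio of -0.06 over 17 genes and 0 past 2-fold. Psma2, a core subunit, had a ratio of 0.796 (0.693 to 0.914), or 1.001 with all UMIs. In MHC class I presentation 5 of 14 genes had an interval below 1, 0 had one above 1 and 0 passed 2-fold, the median log2 ratio being -0.24. Tap1, a chain of the peptide transporter, had a ratio of 0.633 (0.438 to 0.907), H2-D1, a class I heavy chain, 0.842 (0.813 to 0.872) and B2m, the light chain, 0.875 (0.836 to 0.915).

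Early response genes ran the other way. The 19 immediate early genes summed to a median of 61 UMIs per 10000 in PTIR1 cells (1 to 359) and 34 in mock cells (0 to 329). Of 17 measured, 15 were higher, each with an interval above 1 and 13 of them at least 2-fold, with a median log2 ratio of 1.20. Fos, a subunit of the AP-1 factor, was at 1054 CPM in PTIR1 and 284 CPM in mock cells, a ratio of 3.71 (3.36 to 4.09). Btg2, which slows division, was at 168 and 27.7 CPM, 6.06-fold higher (4.49 to 8.34). Zfp36, which degrades inflammatory mRNA, and Dusp1, a MAP kinase phosphatase, had ratios of 4.18 (3.35 to 5.26) and 3.19 (2.82 to 3.61). Egr1, another early transcription factor, had a ratio of 1.6 (1.49 to 1.72). Of the 2 genes that were lower, only Fosl1 had an interval below 1. It was at 61.5 CPM in PTIR1 and 111 CPM in mock cells, a ratio of 0.552 (0.432 to 0.703). In PTIR1 cells the list's sum had a Spearman correlation of -0.40 with total UMIs, and in mock cells 0.04, and with the Dcn group's share it had 0.24 in PTIR1 and 0.02 in mock cells. In the PTIR1 barcodes past the Dcn limit, Fos was at 2357 CPM, Btg2 at 430.2 CPM and Zfp36 at 614 CPM. The part of depth and of those barcodes' RNA was not tested. Heat shock genes were lower in 9 of 9 measured, 8 of them with an interval below 1, with Hsp90aa1 at 0.607 (0.572 to 0.645) and Hsph1 at 0.576 (0.474 to 0.699).

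Matrix genes were higher in all 11 measured of the collagens and matrix list, 8 of them with an interval above 1 and 4 at least 2-fold (Col6a1, Col3a1, Col4a2 and Col18a1, of which Col4a2 was at 2.80, or 1.34 with all UMIs), with a median log2 ratio of 0.80. Per cell the list summed to a median of 83 UMIs in PTIR1 and 59.5 in mock cells. The median log2 ratio was 0.69 with the Dcn group kept under 0.05%, and 1.26 with no Dcn limit. Even in Ptprc-positive barcodes all 11 genes were higher, with a median log2 ratio of 2.0, and across tumour cells the list's sum had a Spearman correlation with the Dcn group's share of 0.30 in PTIR1 and 0.43 in mock cells. How much of this RNA came from other cells was not tested. The mesenchymal list was level, with a median of 0.01, apart from Fn1, fibronectin, at 1172 and 554 CPM in PTIR1 and mock cells, a ratio of 2.12 (1.962 to 2.29). Among secreted signals, Cxcl1, a neutrophil chemokine, was at 149 and 52.7 CPM, a ratio of 2.83 (2.23 to 3.61), and Csf1, the macrophage growth factor, at 116 and 46.2 CPM, a ratio of 2.51 (1.94 to 3.28). Mif, an inflammatory cytokine, had a ratio of 0.540 (0.497 to 0.585). Cxcl2 stood at 122 and 58.7 CPM in PTIR1 and mock cells, and at 7889 and 3949 CPM in Ptprc-positive barcodes. In the unfolded protein list 4 of 12 genes were higher, with a median log2 ratio of -0.07, and Dnajb9, a chaperone of the endoplasmic reticulum, had a ratio of 2.08 (1.34 to 3.27), or 1.14 with all UMIs. Of 6 immune ligands and receptors measured, 0 passed 2-fold.

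**Figure D4:**
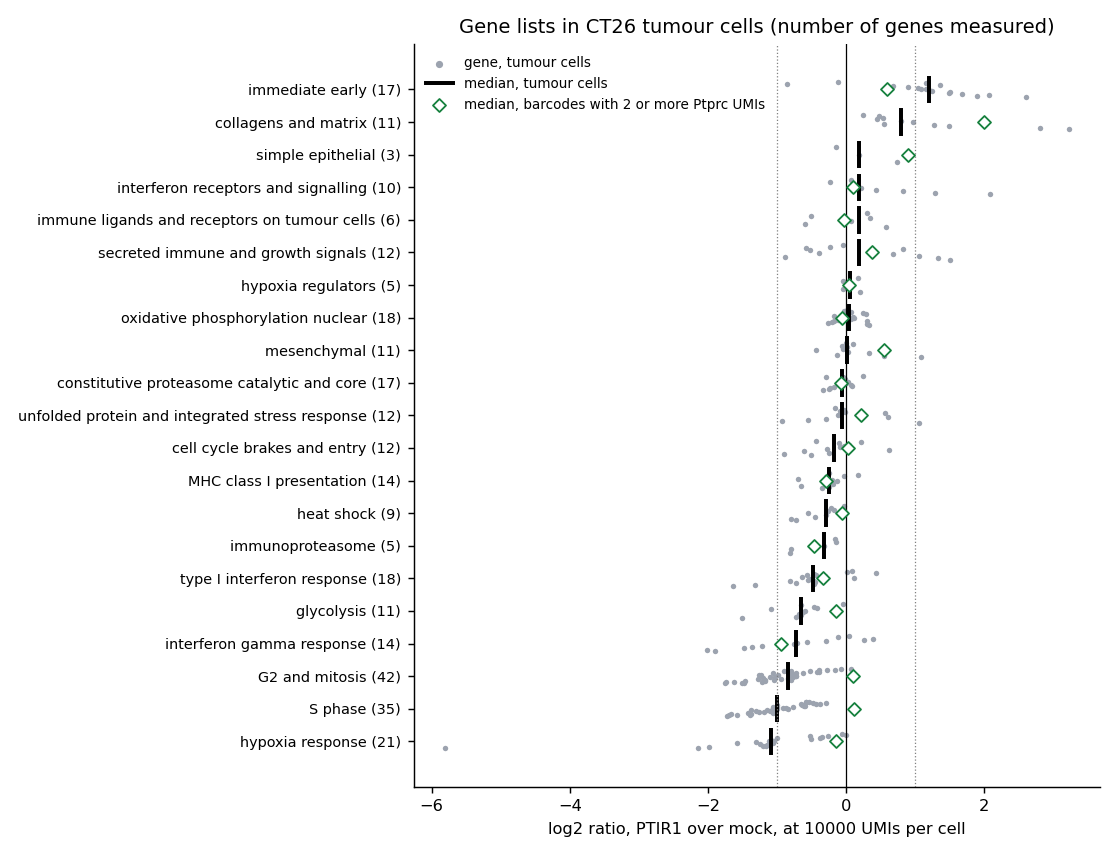
Log2 ratio of PTIR1 over mock (horizontal axis) for the genes of each list (rows, number measured in brackets), with grey points for genes and black bars for medians in tumour cells; open diamonds are medians of the same genes in barcodes with 2 or more Ptprc UMIs, and dotted lines mark 2-fold (the squamous list, with 2 genes measured, is not drawn). The S phase, G2 and mitosis and hypoxia medians in tumour cells (-1.003, -0.85 and -1.09) lie apart from the diamonds (0.12, 0.10 and -0.15), while the interferon gamma median (-0.73) lies near its diamond (-0.94).

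The same genes were read in the 2282 PTIR1 and 2690 mock Ptprc-positive barcodes. Replication and division genes were not lower there: the list sums averaged 8.74 UMIs per 10000 in PTIR1 and 8.19 in mock barcodes for S phase, and 14.6 and 13.5 for G2 and mitosis. The median log2 ratios were 0.12 and 0.10. Hypoxia sums were also close, at 21.9 in PTIR1 and 23 in mock barcodes, with a median of -0.15 and 18 of 21 genes lower. Interferon gamma genes, in contrast, were lower in 14 of 14, at 39.1 and 64.9 UMIs per barcode, with a median of -0.94, and the 5 immunoproteasome genes were lower as well, with a median of -0.46. Immediate early genes were higher in 17 of 17, with a median of 0.60. The interferon and early response differences thus ran the same way in Ptprc-positive barcodes as in tumour cells. The cycling lists were nearly level in Ptprc-positive barcodes, and hypoxia differed by less there than in tumour cells. In the 413 PTIR1 and 20 mock barcodes past the Dcn limit, 24 of 35 S phase genes were lower and 11 higher, with a median of -0.56. Their S phase sums averaged 5.29 and 7.6 UMIs per 10000. Medians there were -0.27 for glycolysis, -0.12 for G2 and mitosis and 0.03 for hypoxia. A lower S phase median was thus not particular to the tumour cells. The difference between the sets was not tested, since each rests on the same 2 libraries, and the cell types within the Ptprc-positive barcodes were not matched.

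How the states sat together in single cells was then examined. Each list was split into alternating genes by alphabet, and the sums of the parts were correlated across cells. The Spearman correlations were 0.73 in PTIR1 and 0.88 in mock cells for S phase, 0.63 and 0.93 for G2 and mitosis, 0.33 and 0.69 for hypoxia, and 0.43 and 0.67 for interferon gamma. The list sums were smaller in PTIR1 cells, and the difference between the libraries was not tested. All these correlations are descriptions over 169 PTIR1 and 184 mock cells at equal depth, and the cells of a library share that library. Hypoxia and glycolysis had a correlation of 0.25 in PTIR1 and 0.71 in mock cells. In the 42 PTIR1 cells with the highest hypoxia sums, glycolysis genes averaged 73.2 UMIs per 10000, against 50.95 in the 42 with the lowest, a ratio of 1.44. In the 46 highest and 46 lowest mock cells they averaged 167 and 56.98, a ratio of 2.93. G2 and mitosis had a correlation with hypoxia of -0.09 in PTIR1 and -0.32 in mock cells, and with collagens and matrix of -0.44 and -0.22.

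States overlapped in few PTIR1 cells. At or above 0 of the 4 lines lay 57.4% of PTIR1 cells and 27.2% of mock cells, and at or above 2 or more lay 6 PTIR1 cells and 48 mock cells (39 at 2 lines, 9 at 3). No PTIR1 cell was high in both G2 and mitosis and hypoxia, where 7 mock cells were, and 1 was high in both S phase and G2 and mitosis, where 10 mock cells were. Fewer PTIR1 cells were high in each state, so fewer could be high in 2.

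Interferon and antigen processing went together within each library. The interferon gamma sum had a correlation with the immunoproteasome of 0.39 in PTIR1 and 0.54 in mock cells, and with type I genes of 0.46 and 0.56. The 42 PTIR1 cells with the highest interferon sums averaged 10.9 immunoproteasome UMIs per 10000, against 4.90 in the 42 lowest, and the 46 highest and 46 lowest mock cells averaged 17.2 and 5.96. Hypoxia ran the other way. The PTIR1 cells with the highest hypoxia sums averaged 5.19 immunoproteasome UMIs, against 8.64 in the lowest, a ratio of 0.601 (0.505 to 0.712), and mock cells averaged 7.22 and 12.04, a ratio of 0.599 (0.521 to 0.688). Within each library the cells with the highest hypoxia sums thus held less immunoproteasome RNA than those with the lowest. Between the libraries, PTIR1 cells were lower in both sums. The highest PTIR1 cells had a median hypoxia sum of 17, against 49 in the highest mock cells. Most of those PTIR1 cells lay under the hypoxia line of 22.25, which 11 PTIR1 cells reached. Across all cells the hypoxia sum had a Spearman correlation with the immunoproteasome of -0.18 in PTIR1 and -0.33 in mock cells.

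**Figure D5:**
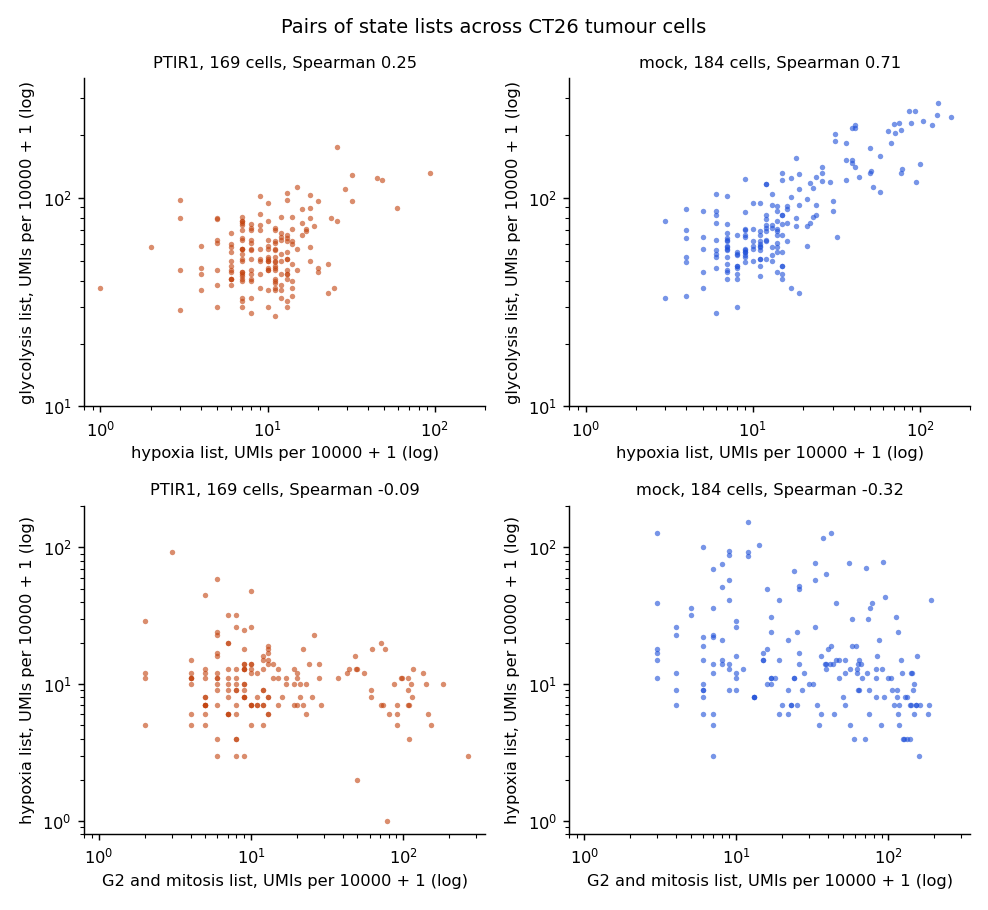
Summed UMIs per 10000 plus 1 (log axes) of pairs of lists for every tumour cell, PTIR1 left and mock right; the top row sets glycolysis against hypoxia and the bottom row hypoxia against G2 and mitosis. PTIR1 cells mostly stay at the low end of hypoxia and glycolysis (Spearman 0.25), and mock cells extend to high values of both together (0.71).

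Genes outside each list that followed its sum in both libraries were ranked by the lower of the correlations, over 3601 to 3641 genes with at least 50 UMIs in each library. With S phase went Slfn9 (0.66 in PTIR1, 0.60 in mock cells), Pclaf, a partner of the replication clamp (0.58 and 0.59), Dek (0.55 and 0.71) and the ligase Lig1 (0.50 and 0.64). With G2 and mitosis went the histone H2afz (0.65 and 0.70), Racgap1 of cytokinesis (0.63 and 0.68), Hmgb1 (0.60 and 0.76) and the condensin subunit Smc2 (0.59 and 0.74). Hypoxia was followed by Mif (0.33 and 0.59), Pgk1 (0.33 and 0.68) and Pgam1 (0.30 and 0.59), and less closely by the demethylase Jmjd6 (0.26 and 0.33). Interferon gamma was followed by Ifitm3 (0.40 and 0.64), B2m (0.39 and 0.40), Psmb9 (0.39 and 0.46), Psmb10 (0.37 and 0.41) and Ly6a (0.35 and 0.66). Also among the first 10 were Eif1 (0.22 and 0.30) and Sars (0.27 and 0.22) for hypoxia and Tmem176b (0.35 and 0.30) for interferon gamma.

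Since the libraries differed in cycling, the other lists were compared again among cells on either side of the mock median of the G2 and mitosis sum. Below it were 132 PTIR1 and 91 mock cells, and at or above it 37 PTIR1 and 93 mock cells. Hypoxia was lower in both, with medians of -1.25 and -1.13 in the low and high cells. Immunoproteasome medians were -0.33 and -1.004, and interferon gamma medians -0.42 and -0.97. Immediate early genes differed mainly in the low cells, with medians of 1.305 and 0.13, and collagens and matrix had 0.82 and 0.31. S phase genes were lower in both, at -0.98 and -0.46, while G2 and mitosis genes, which drew the line, were at -0.54 and 0.12. At or above the line, 29 of the 42 genes of G2 and mitosis were higher in PTIR1 cells and 13 lower.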

How the data were processed

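The deposited UMI counts per gene and barcode carry the version 5.0.0 of Cell Ranger per the file headers. Seurat 3.2.3 and build mm10 appear in the submitters' processing notes, and the chemistry was version 3.1 per the labels' protocols. Annotation, counting and strand settings are not given in the sources used here. Library totals were 98540561 UMIs (PTIR1) and 95166611 UMIs (mock). The tumour cells, gene lists and comparisons were chosen with earlier results of these data known. Each tumour cell was thinned without replacement to 10000 UMIs (seed 1), and a gene was measured with 50 UMIs over both libraries. Ratios are PTIR1 over mock with exact conditional binomial intervals, shares have exact Clopper-Pearson intervals, and ratios of shares log-normal ones. All treat UMIs or cells as independent, so intervals are too narrow for genes read in few cells. Genes named are the 12 in each direction with the interval end nearest to 1 farthest from it, the first 4 of each list by that rank, the genes that best follow each state, and lists of regulators. Further list members, Bnip3, Slc2a1, P4ha1, Vegfa, Hk2, Kdm3a, Egln1, Irgm1, Irf1, Igtp, Ifi47, Socs1, Psme2, Egr1 and Fosl1, were named after their values were seen. Ddit3 (on more than 1 row), Cxcl11, H2-L and Mx2 were not used here. Barcodes ranked highest by Scrublet (0.8% per 1000 barcodes) included 1 PTIR1 and 2 mock tumour cells, which were kept. Gene positions are from GENCODE vM21, and promoters were matched by symbol to RefSeq. Code was tested on simulated data. Tools were Python 3.11.15 with scanpy 1.11.5, scipy 1.17.1, numpy 2.4.6, pandas 2.3.3 and matplotlib 3.10.9.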

Additional observations from a re-analysis of the deposited data

How the results depend on the processing

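No paired analysis was possible because each group has 1 library. Of 416 comparisons over 28 results, 366 stayed within the counting interval or within 1.5 times, 50 moved and 0 that had passed 2-fold reversed, though 7 medians near 0 crossed it under some alternative: cell cycle brakes and entry (-0.31 to 0.046), hypoxia regulators (-0.24 to 0.36), unfolded protein (-0.27 to 0.073), simple epithelial (-0.35 to 2.05), mesenchymal (-0.0055 to 0.22), secreted signals (-0.13 to 0.43) and oxidative phosphorylation genes (-0.075 to 0.086); the causes of the moves were not tested. Leaving out the tumour cells with a Y-linked UMI (157 PTIR1 and 173 mock cells left) moved none. The S phase median ranged from -1.36 to -0.72, hypoxia from -1.43 to -0.88 and the immunoproteasome from -0.53 to -0.22. Values below are counts of genes past 2-fold, list medians (log2) or ratios of shares.

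With a mitochondrial limit of 5% (88 PTIR1 and 100 mock cells), 77 genes were higher, the interferon gamma median was -2.50, the type I median -1.21, and the share ratios 0.182 for S phase and 0.136 for hypoxia. With tumour genes at 0.05% or more (280 and 195 cells), the share of tumour cells had a ratio of 1.77, 388 genes were higher and 306 lower, and medians were -1.41 for G2 and mitosis, -0.82 for glycolysis, -0.091 for MHC class I, 1.56 for immediate early, -0.27 for unfolded protein, -0.26 for simple epithelial and -0.075 for oxidative phosphorylation genes. The share ratios were then 0.171 for S phase and 0.320 for G2 and mitosis. At 0.2% or more (93 and 132 cells), the tumour cell ratio was 0.869, 52 genes were higher, medians were -0.54 for G2 and mitosis, -0.50 for glycolysis and 1.04 for immediate early genes, and share ratios 0.209 for S phase and 0.338 for interferon gamma. With Ptprc at 0, the simple epithelial median was -0.35. With the Dcn group under 0.05%, 114 genes were lower and the immediate early median was 0.94. With no Dcn limit (231 and 191 cells, chosen after seeing the data), the tumour cell ratio was 1.49, 295 genes were higher, medians were -1.10 for G2 and mitosis, 0.22 for mesenchymal and 1.26 for collagens and matrix, and the S phase share ratio 0.219.

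With all UMIs summed, medians were -0.54 for glycolysis and 0.91 for immediate early genes. From 20 UMIs per gene, 379 genes were higher and 305 lower, and the heat shock median was -0.46. From 1 UMI, 2250 were higher and 1495 lower, with medians of -0.37 for heat shock and 2.05 for simple epithelial genes. Lines at the mock median gave share ratios of 0.596 for hypoxia and 0.924 for interferon gamma, and at the mock 90th percentile 0.115 for S phase, 0.344 for G2 and mitosis, 0.109 for hypoxia and 0.327 for interferon gamma. Under 100000 UMIs (also chosen after seeing the data), the heat shock median was -0.43. Of barcodes with at least 10000 UMIs, the tumour cell ratio was 0.858.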

Other observations

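Barcodes that met the tumour cell rule but had 10 to 20% mitochondrial UMIs numbered 14 in the PTIR1 library and 19 in the mock library. Mki67 averaged 187 and 551 CPM in them, against 53.2 and 160 CPM in the PTIR1 and mock tumour cells. Another 22 PTIR1 and 23 mock barcodes had tumour genes together with 2 or more Ptprc UMIs. Y-linked RNA was found in 11 of 22 PTIR1 and 15 of 23 mock barcodes, and Lyz2 averaged 2492 and 876 CPM. Ly6a, a surface protein of the interferon response, lay outside the interferon list and averaged 114 CPM in PTIR1 and 279 CPM in mock tumour cells, a ratio of 0.409 (0.345 to 0.483).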
